A study of Homo sapiens with 8 samples.

Results

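Chromatin from KGN cells carried 30398 stretches acetylated at lysine 9 of histone H3 (H3K9ac) that were called with butyrate, had no counterpart in the control list, and had their midpoint beside the closest annotated gene start. They were chosen from the H3K9ac peak list of butyrate-treated cells on chromosomes 1 to 22 and X. A peak was kept when no merged control H3K9ac peak shared a base with it, which is called gained here, and when its midpoint lay above 1000 and up to 10000 bp from the closest annotated gene start. The list held 79356 merged peaks, of which 61089 were gained, so the flanking gained peaks made up 49.8% (95% exact Clopper-Pearson interval 49.4 to 50.2) of all gained peaks. Such intervals cover the counting of peaks only.

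The KGN line was established from a tumour of human ovarian granulosa cells, which surround the oocyte and make hormones. Untreated cells were set beside cells kept with 1 mM butyrate for 6 h, and chromatin was immunoprecipitated and sequenced (ChIP-seq). Each condition had 1 library for H3K9ac, 1 for acetylated lysine 16 of histone H4 (H4K16ac), 1 with nonspecific IgG and 1 of input, 8 samples in all, and the input samples were not analysed here. With 1 library per condition and antibody, no difference was tested, no p-value is given, and every difference below lies between 2 libraries of 1 tumour line.

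Acetylation of lysine 9 neutralises the positive charge of the H3 tail and is read by bromodomain proteins. The mark usually sits on the nucleosomes on either side of an active gene start and fades into the first intron. Butyrate, a short-chain fatty acid, inhibits class I and class IIa histone deacetylases, the enzymes that remove such acetyl groups. Acetylation away from starts is commonly found at enhancers, which carry no gene start of their own.

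The widest of these peaks held sequences of its own that a reader can recognise. It covered chr22:46106141-46115575 (GRCh38), 9435 bp, and contained the hairpins of let-7a-3, miR-4763 and let-7b, which RefSeq places in the host gene MIRLET7BHG at chr22:46085997-46113928. The mature 5' arms of both let-7 hairpins are shown because they share the seed, bases 2 to 8, in capitals, which pairs with target messenger RNAs (sequences from RefSeq, GRCh38.p14).
hsa-let-7a-5p: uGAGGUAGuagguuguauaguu
hsa-let-7b-5p: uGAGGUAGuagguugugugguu
Of 1558 RefSeq miRNA hairpins on these chromosomes, 238 touched a butyrate H3K9ac peak and 144 a control peak. A flanking gained peak touched 4 of the 1558 hairpins, and 3 of these were in the widest peak. The remaining hairpin, MIR11399 on chromosome 1, lay in a peak of 1285 bp with a −log10 q of 2.47. The annotation counts the let-7a-3 hairpin as a gene start, and peaks with a midpoint within 1 kb of a start were left out. Where hairpins count as starts, the choice of peaks therefore limits the number of hairpins under flanking gained peaks.

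Some flanking gained peaks lay on a promoter although their midpoint was above 1 kb from the closest start. The 250 bases before a RefSeq start, or the 50 after it, touched a flanking gained peak for 290 windows of protein-coding genes and 144 of long noncoding RNAs, under 401 peaks. By midpoint, 1.79% of flanking gained peaks lay within 1 kb of a RefSeq protein-coding start, and 11 peaks covered the start they were recorded with. The promoters of S1PR3, a receptor for sphingosine-1-phosphate, and NPAS2, a circadian clock transcription factor, are shown because both starts lacked a control H3K9ac peak within 1 kb and strong gained peaks lay over them. GC boxes (GGGCGG on either strand), which bind factors of the SP family, are in capitals. The letters run 5' to 3' on the gene's strand and end at the base before the RefSeq start.
S1PR3, chr9:88991218-88991467, plus strand: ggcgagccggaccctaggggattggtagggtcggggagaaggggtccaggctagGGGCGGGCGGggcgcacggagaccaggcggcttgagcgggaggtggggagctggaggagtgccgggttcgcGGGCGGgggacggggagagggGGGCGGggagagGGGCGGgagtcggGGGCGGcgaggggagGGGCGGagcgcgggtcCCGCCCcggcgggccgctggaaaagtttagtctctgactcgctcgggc
NPAS2, chr2:100819889-100820138, plus strand: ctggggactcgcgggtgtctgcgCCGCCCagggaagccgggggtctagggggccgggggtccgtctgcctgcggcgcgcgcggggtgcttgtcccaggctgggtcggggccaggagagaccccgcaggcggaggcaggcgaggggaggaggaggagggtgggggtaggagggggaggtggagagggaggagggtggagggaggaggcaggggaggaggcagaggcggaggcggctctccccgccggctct
The S1PR3 stretch was 76.4% G or C with 28 CpG dinucleotides and 8 GC boxes, and the NPAS2 stretch was 76.4% G or C with 20 CpG dinucleotides and 1 GC box. The peak at S1PR3, chr9:88991323-88992391, had a fold of 6.98 and a −log10 q of 14.4, with the nearest control peak 317427 bp away. It was recorded 4649 bp upstream of another S1PR3 start in the deposited annotation. The peak over the NPAS2 promoter, which was recorded under a neighbouring gene without symbol, chr2:100818568-100821484, had a fold of 6.15 and a −log10 q of 16.5, and its nearest control peak was 180218 bp away. A GC box was present before 53.2% of 269 protein-coding starts under flanking gained peaks with a promoter sequence, and before 54.9% of all 15812 such starts. These matches describe letters, not binding sites.

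Flanking positions were mostly newly called in the butyrate list. Of the 36167 butyrate peaks at 1 to 10 kb from a start, 84.0% were gained, against 77.0% of all butyrate peaks, 35.6% of those within 1 kb and 92.4% of those beyond 10 kb. The choice of members fixes that they are gained, so these shares only describe the lists. The 5769 flanking peaks that did overlap a control peak, called shared here, serve for comparison below, as do the 24928 gained peaks beyond 10 kb. Just inside the limits were a peak 1001 bp upstream of CHAD and peaks 10000 bp downstream of TCP11L1 and DNAJC22. Just outside were a peak 1000 bp downstream of ZBTB41 and another 10001 bp upstream of SYCN, with −log10 q of 3.25 and 2.34 beside 2.81, 3.14 and 2.34 for the former.

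Flanking gained peaks were narrow and weak. Their median width was 405 bp (range 251 to 9435), 85.9% had 1 summit, and together they covered 15.6 Mb. The authors' fold is the pileup of fragments at the summit over the local background, with 1 added to each, and its median was 3.21 (5th to 95th percentile 2.42 to 4.77). The median −log10 q was 3.06. The pileup itself, recovered from fold and p, had a median of 14 fragments (9 to 77) over a local background of 3.69. Shared flanking peaks had a median width of 1243 bp, a fold of 4.97, a −log10 q of 8.87 and a pileup of 24 over 3.87. The median local backgrounds of both classes were close, and the summits of shared peaks were higher. Gained peaks beyond 10 kb were like the flanking ones, with a median width of 397 bp, a fold of 3.22 and a pileup of 14. A −log10 q of at least 10 was reached by 1.79% of flanking gained peaks and 44.0% of shared ones. The weakest peak of the control list had a −log10 p of 3.46, and 12.2% (11.9 to 12.6) of flanking gained peaks were weaker than that. A control peak of equal −log10 p would have been left out of its list. The depth of the libraries is unknown here, so this share does not tell how many sites would be called in both lists at equal acetylation.

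**Figure D1:**
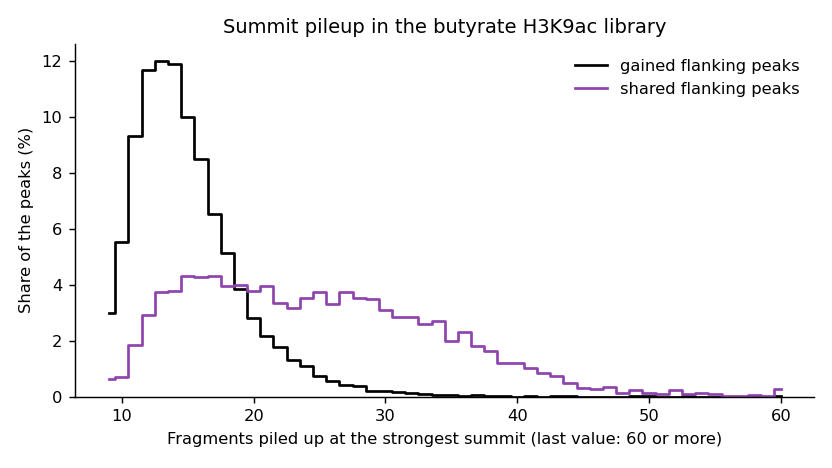
Distribution of the number of fragments at the strongest summit (x axis) as a share of the peaks of each class in percent (y axis), for 30398 gained and 5769 shared flanking peaks of the butyrate H3K9ac library. The gained peaks crowd around their median of 14, and the shared peaks spread around a median of 24.

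The starts beside flanking gained peaks included ones with and without a control H3K9ac peak. In 46.7% (46.1 to 47.3) of flanking gained peaks, 14195 peaks, a control H3K9ac peak reached within 1 kb of the start. In 24.6%, 7492 peaks, the start had a peak with butyrate only, and in 28.7%, 8711 peaks, it had none in either list. Of the 7492 peaks with butyrate only, 842 (11.2%) reached into that 1 kb window with their own edge, and 1095 had no peak at the start other than flanking gained ones. When flanking gained peaks were not allowed to mark a start, a setting chosen after seeing the data, the shares were 21.0% with butyrate only and 32.3% in neither list. Among gained peaks beyond 10 kb, 35.5% had a start marked in control, and among shared flanking peaks 75.2%. The annotation counts many small genes as starts. The closest gene of 43.7% of flanking gained peaks had no symbol in the deposited annotation, and for 13.4% it was shorter than 400 bp. Where the closest gene was protein-coding, 66.8% (66.0 to 67.5) of 16731 peaks stood beside a start marked in control. Of all protein-coding genes, 54.7% had a start marked in control, a share that counts genes, at any of their starts, and not peaks.

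Flanking gained peaks lay more often downstream of the start, on the transcribed side, than upstream, with 56.1% (55.5 to 56.7) downstream. At starts marked in control 61.6% (60.8 to 62.4) were downstream. At starts marked with butyrate only it was 51.8% (50.6 to 52.9), and at starts marked in neither list 50.9% (49.8 to 51.9). The difference between these classes was not tested. Gained peaks beyond 10 kb were downstream in 56.8% (56.1 to 57.4), close to the flanking ones, and shared flanking peaks in 63.8% (62.5 to 65.0). Peaks with a midpoint recorded in a first intron made up 31.6% of flanking gained peaks at starts marked in control. The share was 17.3% at starts marked with butyrate only and 16.6% at starts marked in neither. That intron could belong to any overlapped gene, and any such row of a merged peak sufficed. Of all flanking gained peaks, 23.8% were in a first intron, 9.0% in an exon or untranslated region and 38.1% in no gene. Gained peaks beyond 10 kb were in a first intron in 14.0% of cases.

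Their number fell slowly with distance from the closest start. How much of the genome lies at each distance was not taken into account. The bin from 1 to 2 kb held 5235 flanking gained peaks (17.2%), the bin from 2 to 3 kb 5170 (17%), and the bin from 9 to 10 kb 1844 (6.07%). Shared flanking peaks crowded next to the start, with 49.2% of them between 1 and 2 kb and 2.76% between 9 and 10 kb. The median distance was 4120 bp for gained and 2034 bp for shared flanking peaks. At starts marked in control, flanking gained peaks were fewer at 1 to 1.5 kb downstream (487) than at 1.5 to 2 kb (792). These counts were 191 and 282 at starts marked in neither list, and 591 and 401 at starts marked with butyrate only. A control peak at the start can extend into this zone, but whether that changes the count was not tested. At starts marked with butyrate only, the bin from 1 to 2 kb held 25.5% of the peaks. Peaks in this bin lie next to the 1 kb window and can mark the start themselves. When flanking gained peaks could not mark a start the share was 22.1%. The median pileup was 14 in each of the 9 bins of 1 kb.

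**Figure D2:**
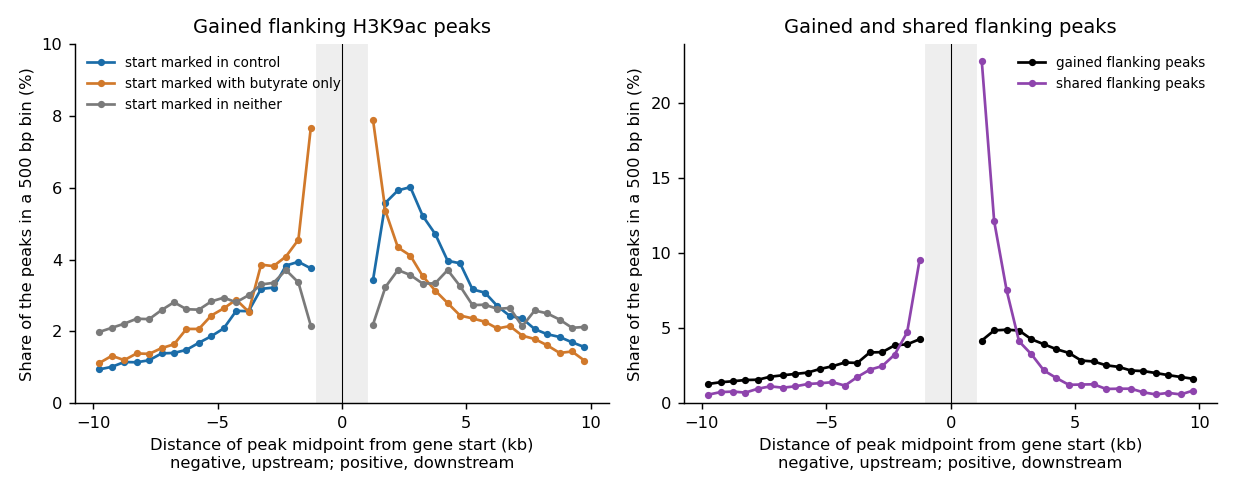
Position of peak midpoints relative to the gene start in kb (x axis, negative upstream, the excluded 1 kb on either side shaded) as a share of each class in percent per 500 bp (y axis). Left, flanking gained peaks by whether the start had an H3K9ac peak in control, with butyrate only or in neither list, and right, all gained against all shared flanking peaks. The downstream side is higher for starts marked in control (61.6% downstream), and shared peaks crowd beside the start.

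The distance to the nearest control H3K9ac peak separated the classes of starts. The median gap, edge to edge, was 5407.5 bp over all flanking gained peaks. It was 2107 bp at starts marked in control, 13261 bp at starts marked with butyrate only and 21364 bp at starts marked in neither. The definition of the first class limits its gap, which reached 10674 bp at most. Within 1 kb of a control peak lay 15.0% (14.6 to 15.4) of all flanking gained peaks, 26.8% of those at starts marked in control and 4.27% of those at starts marked in neither. For gained peaks beyond 10 kb the share within 1 kb was 4.51%.

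**Figure D3:**
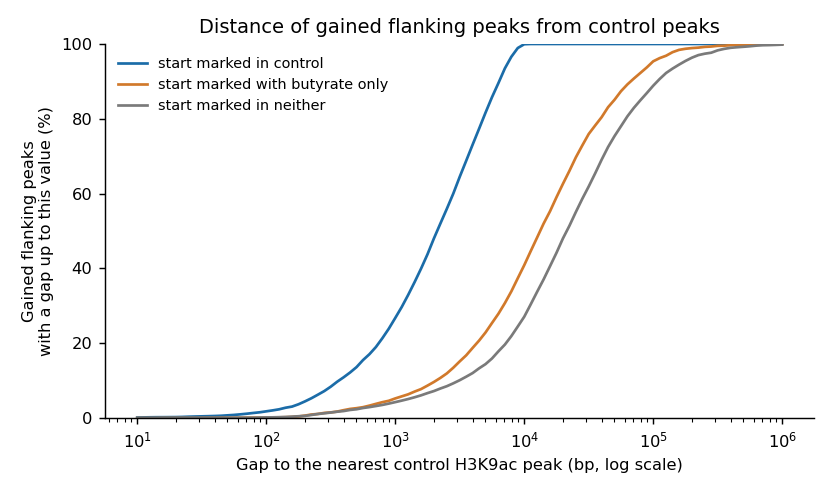
Cumulative share in percent of flanking gained peaks (y axis) with a gap to the nearest control H3K9ac peak up to the value on the x axis (bp, log scale), for the 3 classes of gene starts. The curve for starts marked in control lies to the left, with a median of 2107 bp, and that for starts marked in neither to the right, with a median of 21364 bp.

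H4K16ac, a mark that the choice of peaks did not use, overlapped few of them. A control H4K16ac peak shared a base with 11.3% (10.9 to 11.6) of flanking gained peaks and a butyrate H4K16ac peak with 5.68% (5.43 to 5.95). The strongest H3K9ac summit itself lay in a control H4K16ac peak in 6.17% and in a butyrate one in 2.52%. Gained peaks beyond 10 kb overlapped in 10.8% and 4.89%. Shared flanking peaks, which are wider, overlapped a control H4K16ac peak in 21.7% and held a summit in one in 8.15%. The H4K16ac lists reach weaker peaks than the H3K9ac lists, with a q up to 0.304 in control. With control H4K16ac peaks limited to a q of 0.05, the overlap with flanking gained peaks was 5.63%. The butyrate H4K16ac list was not limited in this way, and it holds weaker calls still, at least 1 with a −log10 q of 0.207. Overlaps with the control and the butyrate list therefore rest on unlike limits, and a single overlap can rest on a weak call. The peak names in both lists of these libraries point to another lysine of H4 than the label does, and H4K16ac here means the libraries so labelled. The IgG lists held 5 control and 2 butyrate peaks, and none of them touched a flanking gained peak.

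Per gene, flanking gained peaks were spread over many genes and stacked up at some. They were assigned to 14167 annotated genes, 6893 of which had 1 peak, 4062 at least 3 and 45 at least 10. Among 19755 protein-coding genes, 7431 (37.6%) had at least 1 and 2332 (11.8%) at least 3. By their start, the share with at least 1 was 51.4% of 10799 genes marked in control, 56.6% of 1828 marked with butyrate only and 11.8% of 7128 marked in neither. Genes with at least 5 flanking gained peaks made up 4.77% of those marked in control, 9.68% of those marked with butyrate only, 0.69% of those marked in neither and 3.75% of all. A flanking gained peak can itself put a gene among those marked with butyrate only. When it could not, 52.8% of 1575 such genes had at least 1 and 9.52% at least 5, and 14.2% of 7381 genes marked in neither had at least 1. For these shares a gene counted as marked at any of its starts, those of the authors or of RefSeq. The most peaks at any gene were 14, at a gene without symbol on chromosome 5.

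Among genes with a symbol, 4 had 12 flanking gained peaks each. These were TMEM160, which encodes a small membrane protein, TNS3, whose product tensin 3 links integrins to actin, PPL, which encodes the desmosome-linked protein periplakin, and STRA6, the receptor for retinol-binding protein. TIMP2, an inhibitor of matrix metalloproteinases, and CSRP1, a LIM domain protein on actin filaments, were among 11 genes with 11 each, 7 of them with a symbol. The 10 genes with the most, ties taken by the highest −log10 q, included 4 without symbol. The strongest peak of a gene is here the one with its highest −log10 q.

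At TNS3 6 peaks lay upstream and 6 downstream, from −8089 to 8195 bp, with pileups from 11 to 25. The strongest peak of TNS3 was 2705 bp wide with a fold of 5.82 and a −log10 q of 11, and it lay 470 bp from a control peak, and the start was marked in control. At STRA6 the 12 peaks, from −8879 to 8995 bp, had pileups from 12 to 20, and no control peak lay within 144797 bp of any of them. The STRA6 start was marked with butyrate only. Gained peaks thus stood on both sides of the start at either gene, next to control peaks at TNS3 and far from any at STRA6. PPL had 8 peaks upstream and 4 downstream, the strongest with a fold of 4.44. The strongest peaks of TMEM160 and TIMP2, both with a start marked in control, had folds of 6.67 and 6.39. At CSRP1 the widest peak, 3668 bp and 9757 bp downstream, had a fold of 5.37 and a pileup of 33.

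**Figure D4:**
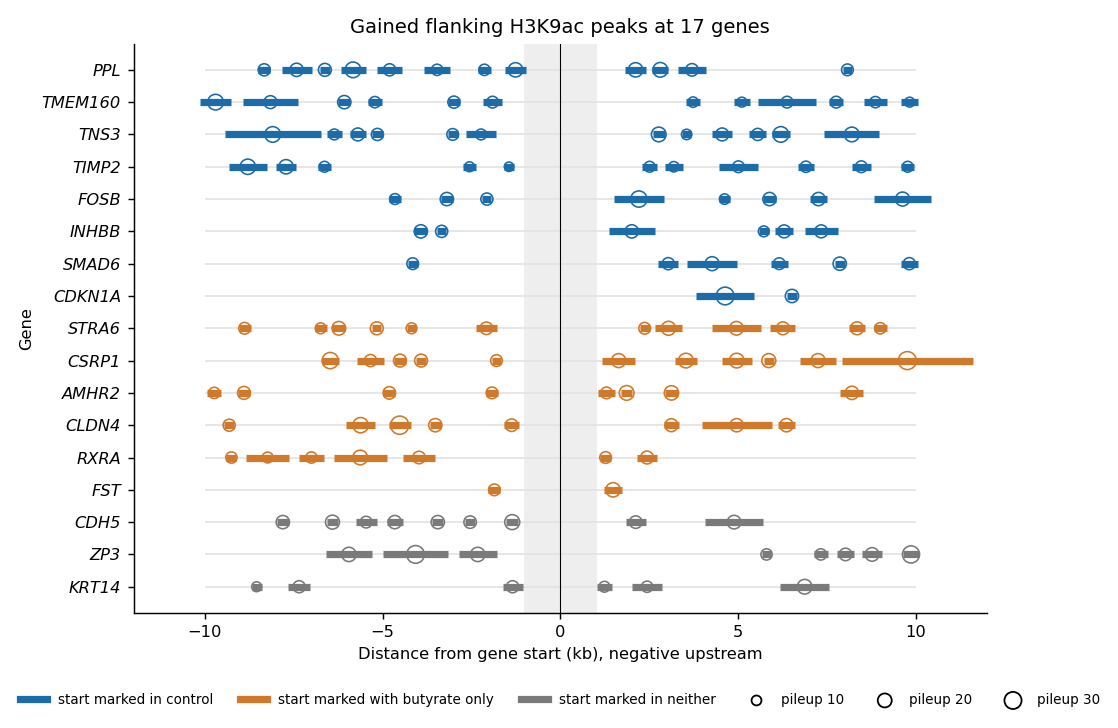
Every flanking gained H3K9ac peak at 17 named genes, by distance from the gene start in kb (x axis, negative upstream, the excluded 1 kb shaded), 1 line per gene. Bars give the width of each peak, circle areas the summit pileup, and colours whether the start to which the peak was assigned had a peak in control, with butyrate only or in neither list. TNS3 and STRA6 carry 12 peaks each, FST and CDKN1A 2 each.

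The strongest flanking gained peaks were few and stood at diverse genes. The highest −log10 q, 24.3, belonged to a peak of 332 bp at chr5:1327485-1327816, 4194 bp downstream of the recorded start of CLPTM1L, which encodes a membrane protein. Its pileup was 53 over a background of 6.87, and a control peak lay 504 bp away. Its midpoint was 17449 bp from the nearest RefSeq protein-coding start, so it flanked a recorded start but no RefSeq protein-coding one. At 8717 bp upstream of PPP1R15B, a phosphatase subunit that acts on the translation factor eIF2, a peak of 2239 bp had a fold of 6.47 and a pileup of 43. A narrower peak of 478 bp with the same fold and pileup lay 3264 bp upstream of ZBTB18, a zinc finger repressor, and its nearest control peak was 402221 bp away. Its midpoint was 472 bp from a RefSeq protein-coding start, so it was not far from every start. The sites were therefore alike in signal, but the former had control H3K9ac 1003 bp away and the latter none nearby. PDXK, the kinase that activates pyridoxal, had a peak 8266 bp downstream with a fold of 8.23. LINC03040, a long noncoding RNA, had a peak 9867 bp upstream with a fold of 7.36. The other 5 of the 10 strongest were assigned to genes without symbol. The recorded starts of the 10 were marked in control in 3 cases, with butyrate only in 3 and in neither list in 4. A control H4K16ac peak overlapped 3 of the 10.

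Beyond these 10, the strongest peaks at starts without control H3K9ac included 3 genes with a symbol. FOXL1, a forkhead transcription factor, had a peak of 1195 bp at 2371 bp upstream with a fold of 8.33 and a pileup of 32. C13orf46 had a peak 6907 bp upstream with a fold of 7.54. S100A16, a calcium-binding protein, had a peak of 1853 bp at 1363 bp downstream with a fold of 6.77, and it overlapped a butyrate H4K16ac peak.

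The peak over the let-7 hairpins stood in a longer run of gained peaks. It had 18 summits with pileups from 17 to 44, a highest fold of 5.77 and a −log10 q of 17.7, and 9 of the summits had a fold of at least 3. The strongest summit lay 170 bp from its left edge, away from the hairpins, and the summits nearest to let-7a-3 and let-7b were 115 and 239 bp from their centres, with pileups of 19 and 22. Counting itself, 13 gained peaks and no control peak lay within 10 kb of it. To the left, a control peak of 16943 bp ended 17800 bp away, and with butyrate the peak there was 19722 bp wide. The start recorded as closest was 46112749, the first base of the let-7a-3 hairpin, so the distance of 1891 bp is not one to a promoter. No H4K16ac peak of either condition overlapped it.

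**Figure D5:**
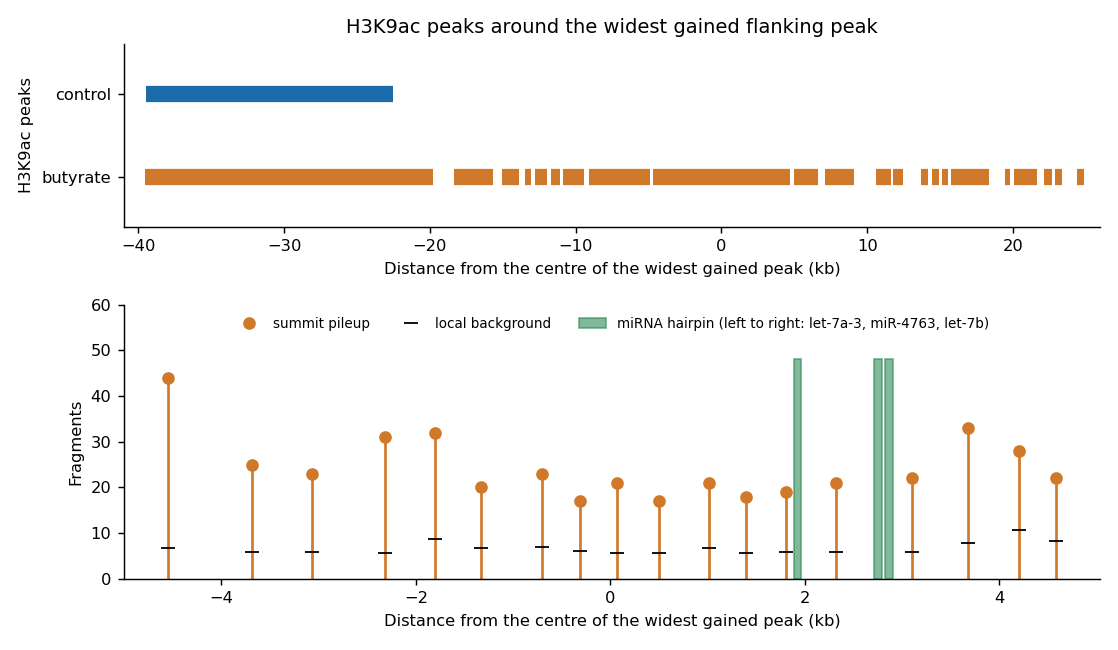
Top, merged H3K9ac peaks of the control and butyrate lists (bars) around the widest flanking gained peak, by distance from its centre in kb (x axis). Bottom, the 18 summits inside it, with the fragments piled up at each (points) and the local background (dashes) on the y axis. The 3 miRNA hairpins are green bands; the highest summit, 44 fragments, lies near the left edge, away from them.

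Genes of granulosa identity were checked for the label and for flanking gained peaks. Of 24 such genes, 9 (37.5%) had a start marked in control, beside 54.7% of all protein-coding genes, among them FOXL2, the transcription factor of the granulosa lineage, and INHA, the inhibin alpha subunit. Starts were marked in neither list at CYP19A1, the aromatase, and at FSHR and LHCGR, the gonadotropin receptors. Flanking gained peaks were found at 10 of the 24 (41.7%, 22.1 to 63.4), beside 37.6% of all protein-coding genes. They were at 5 of the 9 marked in control, beside 51.4% of all such genes, and at 5 of the other 15, beside 1878 of 8956. AMHR2, the receptor for anti-Müllerian hormone, had 8, and INHBB, the inhibin and activin beta B subunit, had 6. At AMHR2 their pileups ran from 13 to 22 and the strongest, 1864 bp downstream, had a fold of 3.63. At INHBB the widest, 1287 bp and 2008 bp downstream, had a fold of 4.01 and a pileup of 18, 339 bp from a control peak. INHA had 3, all downstream, and AMH, the hormone itself, had 3, all upstream. FST, which encodes the activin-binding protein follistatin, had 1 at 1854 bp upstream with a pileup of 14 and 1 at 1482 bp downstream with a pileup of 21, and no control peak within 78143 bp. CYP11A1, the side-chain cleavage enzyme that starts steroid synthesis, had 1 at 2197 bp upstream with a fold of 3.04. FOXL2 and CYP19A1 had none.

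Markers of other cell types also had flanking gained peaks. Counts were 5 of 11 for theca and ovarian stroma, 5 of 10 for blood and immune cells, 4 of 8 for endothelium, 6 of 9 for epithelium, 1 of 10 for the oocyte and 5 of 11 for neurons. Starts marked in control were 4 of 11, 1 of 10, 0 of 8, 1 of 9, 2 of 10 and 2 of 11 in the same order, beside 54.7% of all protein-coding genes. The counts over whole lists stand beside the 37.6% of all protein-coding genes. Among genes without a start marked in control they were 3 of 7, 4 of 9, 4 of 8, 5 of 8, 0 of 8 and 4 of 9 in the same order. Of all protein-coding genes without a start marked in control, 1878 of 8956 had a flanking gained peak. None of these counts was tested. CDH5, the cadherin of endothelial junctions, had 9 peaks with pileups from 14 to 23 although its start was marked in neither list. CSF1R, the receptor for macrophage growth factor, had 7. CLDN4, a tight junction claudin, had 8, the strongest with a fold of 6.24, and KRT14, a basal epithelial keratin, had 6. ZP3, an egg coat glycoprotein, had 8, the strongest with a fold of 6.76 and a pileup of 32. PTPRC, PECAM1 and EPCAM, picked after their values were seen, had no flanking gained peak and no peak at the start in either list. Other members of the same lists had such peaks, as counted above, and KRT18, an epithelial keratin, had 6 and a start marked in control. Whether other cells were present was not tested.

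For the pathway lists, the count among genes with a start marked in control is given too, and is read against the 51.4% of all such genes. In TGF-beta and activin signalling 15 of 29 genes (51.7%, 32.5 to 70.6) had one, all 15 among the 24 marked in control (62.5%). TGFBR3, a co-receptor that binds TGF-beta and inhibin, and SMAD6, an inhibitory SMAD, had 6 each, SMAD7, the other inhibitory SMAD, had 5 and ID1, a target of BMP signalling, had 4. At SMAD6 a single peak lay upstream and 5 lay downstream, the strongest 4267 bp downstream with a fold of 4.28. SMAD4, the common partner of receptor-activated SMADs, had none. In WNT signalling it was 14 of 30 (46.7%) and 10 of the 20 marked in control, with 6 peaks at AXIN1, a scaffold of the complex that degrades beta-catenin, 5 at LRP5, a WNT co-receptor, and 4 each at the ligand WNT3 and the receptor FZD2. In the Hippo pathway it was 10 of 24 (41.7%) and 10 of the 21 marked in control, with 8 at WWC1, an upstream activator of the kinases, and 6 at TEAD3, a DNA-binding partner of YAP1, all downstream. In insulin and IGF signalling it was 12 of 25 (48.0%) and 11 of the 22 marked in control, with no more than 3 at any gene, PDPK1. IRS1, IGFBP4 and FOXO3 had 2 each.

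The AP-1 and immediate early genes had one at 16 of 23 (69.6%, 47.1 to 86.8). FOSB, which encodes an AP-1 subunit, had 8, from −4650 to 9623 bp, and its strongest, 2207 bp downstream, had a fold of 6.37 and a pileup of 27. FOSL1 and MAFF had 4 each, and NR4A1, an orphan nuclear receptor, had 3, while FOS and JUNB had none. Of the deacetylases, acetyltransferases and corepressors, 23 of 31 (74.2%, 55.4 to 88.1) had one, with 30 of the 31 starts marked in control. HDAC6, the tubulin deacetylase, had 6, and HDAC10 and GSE1, a corepressor subunit, had 4 each. The genes of the deacetylases HDAC2, HDAC4, HDAC5, HDAC8 and HDAC9 had none. For these lists the count among starts marked in control was 14 of 19 and 23 of 30. These shares stand beside the 51.4% of all genes marked in control, and the lists were not tested against other genes.

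For actin cytoskeleton and focal adhesion it was 18 of 29 (62.1%, 42.3 to 79.3), all marked in control. Beside TNS3, ACTN4, an actin crosslinker, had 7 and ITGA5, the fibronectin receptor subunit, had 4. The strongest peak of ITGA5 was assigned to a start marked with butyrate only. The cell cycle list had 13 of 24 (54.2%), and 12 of the 23 marked in control. CDKN1C, an inhibitor of cyclin-dependent kinases, had 7 and CCND3, a D-type cyclin, had 6, all downstream. CCND1 had 3, the strongest 4601 bp upstream with a fold of 6.02, and E2F1 had 4. At CDKN1A, which encodes the inhibitor p21, the peak at 4634 bp downstream was 1630 bp wide with a fold of 5.66 and a pileup of 32, and a weaker one at 6512 bp had a pileup of 18. The cytosolic ribosomal protein genes had 16 of 35 (45.7%), all 35 marked in control, with 5 at RPS14 and 4 each at RPL19 and RPL38.

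In PPAR signalling and fatty acid metabolism it was 11 of 26 (42.3%, 23.4 to 63.1), and 9 of the 18 marked in control. RXRA, the dimer partner of PPAR and retinoid receptors, had 7, the strongest 5629 bp upstream with a fold of 5.64. ANGPTL4, a secreted inhibitor of lipoprotein lipase, had 7, FASN, the fatty acid synthase, had 5, all upstream, and CPT1A, which passes fatty acids into mitochondria, had 4. PPARGC1A, a coactivator of mitochondrial genes, had 1 at 3036 bp downstream with a fold of 2.95 and a pileup of 10. In steroid hormone synthesis it was also 11 of 26, but divided otherwise, with 10 of the 12 genes marked in control (83.3%, beside 51.4% of all such genes) and 1 of the other 14. PRKACA, the catalytic subunit of the kinase that relays cyclic AMP, had 4, ADCY9, an adenylyl cyclase, had 3 and FDXR, which passes electrons to mitochondrial steroid enzymes, had 2. None was found at STAR, which moves cholesterol into mitochondria.

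Promoter sequence differed among the classes of genes. The ratio of observed to expected CpG in the 250 bases before the start had a median of 0.84 over 4646 genes marked in control with a flanking gained peak and 0.83 over 4472 such genes without one. At genes marked with butyrate only, it was 0.44 (quartiles 0.23 and 0.77) over 710 genes with a flanking gained peak and 0.62 (0.28 and 0.84) over 640 without, with quartile ranges that overlap. At genes marked in neither list it was 0.35 and 0.34. Among these genes marked in neither, a GC box stood before 43.6% of 587 starts with a flanking gained peak and before 30.4% of 4757 without. The median G or C content of these stretches also differed, 59.6% with such a peak and 52% without. A GC box stood before 72.0% and 64.7% of starts of genes marked in control, and before 55.6% and 54.5% with butyrate only. Whether the GC box shares follow base content was not tested. These values describe the gene classes, to which flanking gained peaks themselves contribute as said above, and were not tested.

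The part of all gained peaks that flanked a start, 49.8% over all of them, varied among chromosomes. Flanking gained peaks made up 59.3% of gained peaks on chromosome 19, 56.9% on chromosome 17 and 56.2% on chromosome 16, 50.5% on chromosome 22 and 38.5% on chromosome 4. Per protein-coding gene of the chromosome there were 2.08, 2.66, 2.69, 3.29 and 0.333 of them in the same order. How densely starts lie on each chromosome was not taken into account. Counts ran from 209 on chromosome 13 to 3623 on chromosome 1. The share beside a start marked in control was 66.1% on chromosome X and between 40.1% and 56.2% on the others.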

How the data were processed

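H3K9ac, H4K16ac and IgG peak lists from KGN cells were used, 1 library per condition and antibody. CASAVA 1.7, MACS2 2.1.0 and the build hg19 are named in the submitters' processing notes. The aligner was not given in the sources used here. In each deposited list the authors give every peak a fold ratio over local background, p- and q-values as −log10, and a score that follows q or p. They added the distance of the peak midpoint to the closest gene start (Distance), positive downstream, per the file headers. The authors' starts lay a median of 63 bp from RefSeq GRCh38.p14 starts over 12915 genes, 91.1% within 10 kb, so positions are read as GRCh38. Starts count from 0 and are printed with 1 added.

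Overlapping rows were merged, and overlap means 1 shared bp. Pileup and background were recovered from the deposited fold and −log10 p, which they returned within 1e-04 for all 79356 peaks. A start counted as marked when a peak reached within 1 kb of it. Of 19974 RefSeq protein-coding genes, 18542 had a strand, 1213 had no H3K9ac peak at either end and count as marked in neither, and 219 were left out. Python 3.11.15 with pandas 2.3.3 and SciPy 1.17.1 was used, and the overlap, gap and pileup steps were tested on simulated data. The depth of the libraries is unknown here, and the pileups are the only counts of fragments.

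The members and gene lists were chosen with earlier results of these data known. Named genes are the 10 with the most peaks, those of the 10 strongest peaks and of 10 more at starts without a control peak, up to 4 per list, 8 anchor genes, and peaks at the distance limits. S1PR3, NPAS2, MIR11399 and, anchors aside, the genes named as having none were chosen after their values were seen. Alternatives are given in the closing section. Some members of the gene lists that this rule would name are not reported here.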

Additional observations from a re-analysis of the deposited data

How the results depend on the processing

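The number of flanking gained peaks, 30398, follows the strength required. It was 3429 with equal numbers of top peaks (22215) from both H3K9ac lists, 6372 when both lists needed a −log10 q of 5 or more, and 1868 when they needed a fold of 5 or more. The genes with such a peak then numbered 2717, 4563 and 1614, and 8684 with the nearest RefSeq protein-coding start in place of the authors' distance. The share of gained peaks that flank a start, 49.8%, became 44.3% with equal numbers, 44.3% at that q, 34.6% at that fold, 48.0% with no control peak within 1 kb, 47.6% with rows within 500 bp merged and 35.2% with RefSeq starts.

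The share beside a start marked in control, 46.7%, became 42.5%, 42.4%, 31.7%, 40.2%, 41.5% and 71.7% in the same order, 50.4% with a window of 2.5 kb and 66.8% over protein-coding genes. The downstream share, 56.1%, became 53.6%, 55.1%, 52.6%, 54.8%, 55.1% and 59.5%, and 59.7% over protein-coding genes, so it stayed above 50%. The median gap, 5407.5 bp, became 5153, 6543.5, 12496, 7265, 7194 and 3418 bp. The overlap with control H4K16ac, 11.3%, became 16.8%, 16.2%, 19.2%, 12% with merged rows and 10.8% with RefSeq starts. It was 5.63% at a q of 0.05, 8.02% with at least 50% of the shorter peak and 6.17% by the strongest summit. The last setting and the protein-coding one were chosen after seeing the data, as was leaving flanking gained peaks out of the marking of starts, whose values stand in the report. Limiting the butyrate list to the control list's weakest p moved no share beyond its interval and left 26680 peaks. The cause of these shifts was not tested. No paired analysis was possible because each group holds 1 library and the labels give no replicate numbers.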
